A study of Mus musculus with 8 samples.

Results

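The genes described here are 39 nutrient transporters and brush border hydrolases of the mouse intestine, chosen by gene symbol from the 32285 genes that each count matrix lists. All 39 members were found in each of the 8 libraries, and 37 had at least 1 UMI (unique molecular identifier, a counted RNA molecule) in every library. The study profiled the intestine of C57BL/6 mice. It deposited 4 Visium sections (10 µm cryosections, 2 technical duplicates each of small and large intestine) and 4 single-cell libraries. For 2 of those, live cells of small and of large intestine were sorted, with enrichment for LGR5+ stem cells and for CD31+ PDPN+ LYVE1+ lymphatic endothelial cells, from C57BL/6 and Lgr5-eGFP-ires-CreERT2 mice on the same background. The other 2 libraries hold epithelial cells of passage 1 small intestinal organoids, grown alone (control) or in coculture, with 16 wells pooled per condition; the labels do not name the partner in the coculture.

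Digestion ends at the brush border, the carpet of microvilli on the luminal face of the absorptive cell. Hydrolases anchored there cut disaccharides and peptides, and transporters in the same membrane take up the products with sodium or proton gradients. Basolateral carriers then pass sugars, amino acids and iron towards the blood. Absorptive cells arise from stem cells in the crypts, move up the villus (in the large intestine, to the flat surface) and are shed at the end of it, and their repertoire differs between proximal and distal gut.

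Every condition had 1 library, or 2 technical duplicates of a section, so no value here measures the spread between animals or cultures and no test between groups was made: an exact two-sided permutation of 2 against 2 sections cannot go below p = 0.333. Ratios are given as log2 ratios of CPM (UMIs of the gene per 1000000 UMIs of the section, bin or cell class). A member is called higher or lower when the ratio passed 2-fold in the same direction in each pair of sections compared, or in the single pair of cell classes, with at least 50 UMIs in all. Counts under 3 were set to 3, and 95% intervals (Clopper-Pearson) cover counting error only. Total UMIs ranged from 24356162 to 43833127 per section and from 46236011 to 142501907 per single-cell library. In the sorted libraries 5497 of 8842 small intestinal and 2060 of 8646 large intestinal barcodes had over 20% mitochondrial UMIs and were left out, and 2695 and 5882 cells were kept; the sort targets were found, with 181 and 1132 stem-like and 362 and 205 lymphatic endothelial-like cells. The sorted libraries shared 25 barcodes and the organoid libraries 0. Markers of gut region differed between the sources of small intestine. The ileal bile acid-binding gene Fabp6 was at 5815 and 5149 CPM in the small intestinal sections and at 0.908 and 1.16 CPM in control and cocultured organoids. Fabp1, a fatty acid-binding gene that is high in proximal gut, was at 48.3 and 45.2 CPM in those sections and at 2819 and 4765 CPM in the organoids. Lactase (Lct) was at 0.534 and 0.665 CPM in the small intestinal sections and at 13.3 and 15.6 CPM in the deposited organoid libraries. Slc2a2 was at 0.287 and 0.233 CPM and at 28.5 and 53.7 CPM. Lct, Slc2a2 and the vitamin C transporter Slc23a1 had fewer than 50 UMIs over the 4 sections. The strand setting of the counting is not given in the sources used here, so reads of genes that overlap members (among them Slc6a19os, Slc13a2os, Prepl at Slc3a1, Oxa1l at Slc7a7 and Sarm1 at Slc46a1) may not be told apart from them, and Slc6a20a is uncertain because of its near copy Slc6a20b.

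The first comparison set the small intestinal sections against the large intestinal ones. Of the 36 members with enough UMIs, 32 were past 2-fold, against 21% of the 15373 genes tested: 28 were higher in small intestine (10.8% of all genes) and 4 were lower (10.2%). The median log2 ratio was 3.63 for the members and -0.01 for all genes. A section also holds muscle and connective tissue, and fewer absorptive cells and less RNA per cell cannot be told apart in it. Per UMI of the epithelial gene list (Epcam, Cdh1, Krt8, Krt18, Krt19, Cldn7, Lgals4 and Phgr1) 31 members were higher and 3 lower, with all genes shifted by 0.57, and no member changed direction. On that scale the median was 4.20 for the members and 0.56 for all genes. The share of all genes called on it is not given here.

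Both sugar transporters tested were higher in small intestine. Slc5a1, which takes up glucose with sodium, was at 1243 and 1684 CPM in the small intestinal sections and at 75.3 and 71.5 CPM in the large intestinal ones, a log2 ratio of 4.30. Slc2a5, the apical fructose transporter, was at 36.4 and 46.6 CPM against 1.99 and 2.83 CPM, a ratio of 4.12. For both genes the sections of the 2 tissues did not overlap. Slc2a2, the basolateral sugar carrier, had 7 UMIs in each small intestinal section and 1 and 0 in the large intestinal ones.

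Among the 8 apical peptide and amino acid transporters, 6 were higher and 1 was lower. Slc6a19, the main neutral amino acid transporter of the brush border, was at 523 and 658 CPM against 0.679 and 0.753 CPM, a log2 ratio of 9.68. Slc36a1, a proton-coupled transporter of small amino acids, was at 23.3 and 26.6 CPM against 99.2 and 94.7 CPM, a ratio of -1.96. Slc1a5, a glutamine exchanger, was 0.89 lower on the log2 scale, short of the limit. Slc7a9 and Slc3a1, the light and heavy chains of the cystine and dibasic amino acid exchanger, had ratios of 5.11 and 4.58. Slc15a1, which takes up small peptides, had a ratio of 2.83. All 3 basolateral amino acid genes were higher, from Slc3a2, a heavy chain shared by several exchangers (97.2 and 107 against 47.5 and 46.7 CPM, ratio 1.12), to its light chain partner Slc7a7 (303 and 352 against 34.6 and 34.3 CPM, ratio 3.24).

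The nucleoside, sulphate, carboxylate and phosphate group split. Slc13a1, the sodium sulphate cotransporter, was at 337 and 395 CPM in small and at 1.50 and 1.48 CPM in large intestine, a log2 ratio of 7.93. Slc28a2, which takes up purine nucleosides, had a ratio of 5.95, and Slc34a2, a phosphate cotransporter, one of 3.63. Slc16a1, which carries lactate and butyrate, lay on the other side, at 84.9 and 82.4 CPM in small and at 191 and 190.2 CPM in large intestine, a ratio of -1.19. Slc13a2, a citrate and succinate transporter, differed by 0.67 and was not called.

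In the metal and vitamin group 3 of 7 tested members were higher and 2 lower. Cubn, which with Amn forms the receptor for intrinsic factor-bound cobalamin, was at 92.0 and 109.8 CPM in small and at 0.509 and 0.411 CPM in large intestine, a log2 ratio of 7.78; Amn had a ratio of 6.34. Slc46a1, the proton-coupled folate transporter, was at 6.45 and 5.95 CPM in small and at 25.6 and 24.1 CPM in large intestine, a ratio of -2.01. Slc40a1, the basolateral iron exporter ferroportin, was at 41.1 and 36.3 CPM against 124 and 127 CPM, a ratio of -1.70. Slc30a10, a manganese exporter, was higher (3.56), while the zinc importer Slc39a4 (0.77) and the iron importer Slc11a2 (0.61) were not called.

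All 3 disaccharidases tested and all 8 peptidase and phosphatase genes were higher in small intestine. Sis, sucrase-isomaltase, had 13676 and 18369 UMIs in the small intestinal sections and 2 UMIs in each large intestinal one. With those 2 UMIs set to 3, its log2 ratio lay between 12.91 and 13.12 in the 4 pairs of sections, and the counting limits of the ratios as counted ran from 11.65 to 16.75. Mgam, maltase-glucoamylase, stood far lower at 2.21, since it remained at 117 and 113 CPM in large intestine. Anpep, aminopeptidase N, had the highest ratio of the peptidases (2416 and 3679 against 4.02 and 4.65 CPM, 9.43) and Mep1a, a meprin subunit, the lowest (703 and 902 against 108 and 109 CPM, 2.87). Of 22 other absorption genes tested, 14 were higher and 3 lower, from Ggt1 (8.50) to the magnesium channel Trpm6 (-3.48). Of 12 genes of microvillus structure, 7 were higher and 0 lower, led by the scaffold Pdzk1 (9.19).

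**Figure D1:**
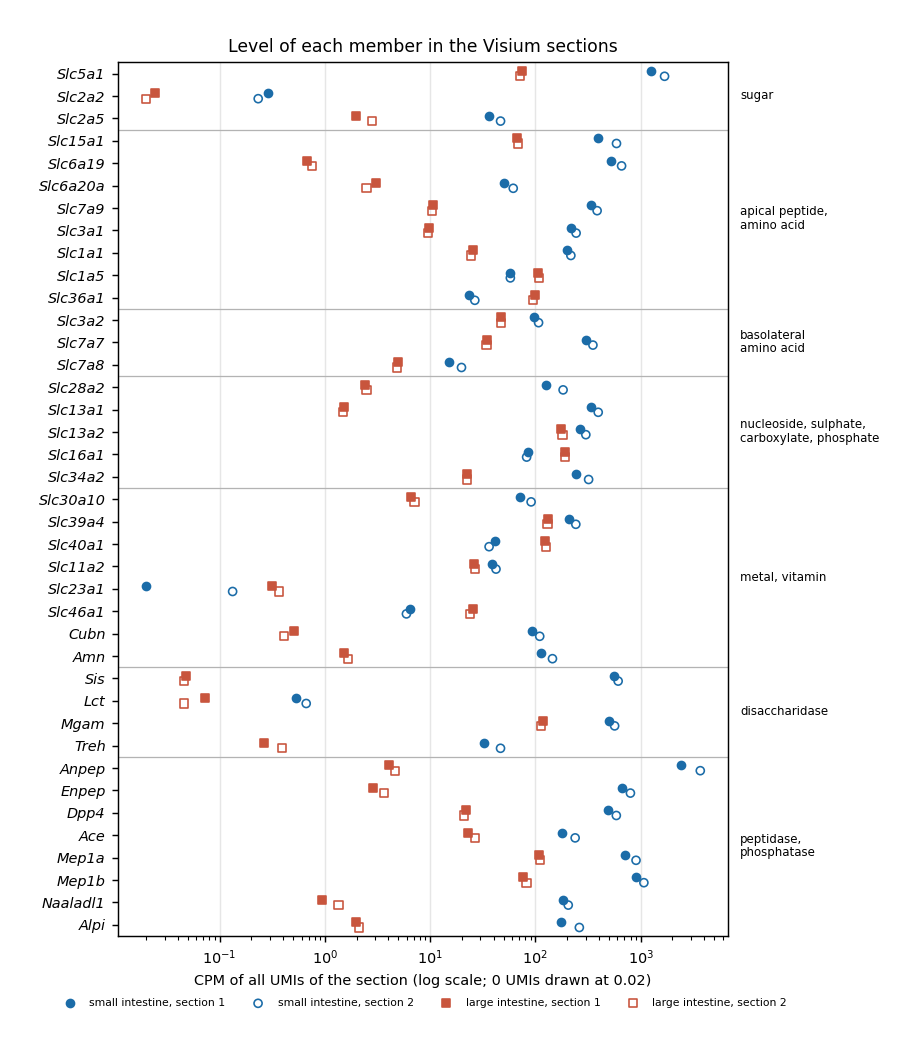
CPM of each member (rows, by role) in the 2 small intestinal (blue circles) and 2 large intestinal sections (red squares) on a log axis, with 0 UMIs drawn at 0.02. Most circles lie right of the squares, and those of Slc36a1, Slc16a1, Slc40a1 and Slc46a1 lie left of them. So do those of Slc1a5 (within 2-fold) and Slc23a1 (under 50 UMIs), which were not called.

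The second comparison followed the members from crypt to villus tip. A Visium spot is a small region with several cells, so mucosal spots (1550 and 1780 in the small intestinal sections, with more epithelial than muscle list UMIs) were ranked by villus tip minus crypt landmark genes, none of them a member, and split into 5 equal bins of 310 and 356 spots. In all, 220 and 286 spots lay within 0.05 of a bin limit. The crypt landmark list went from 23631 and 17802 CPM in bin 1 to 2280.4 and 1206 CPM in bin 5, and the tip list from 733 and 1163 to 6637 and 8823 CPM. The epithelial list was lowest in bin 1 (9384 and 10998 CPM) and at 16746 and 16744 CPM in bin 5. The plasma cell list peaked in bin 2 (14583 and 20224 CPM). A list of 6 genes taken as a check of the middle villus did not peak in bin 3: it climbed from 983 and 1678 CPM in bin 1 over 6219 and 9063 CPM in bin 3 to 23185 and 26182 CPM in bin 5. Bin 3 is therefore called the middle of the ranking only, and its place on the villus was not shown. The part of these other cells in the ratios was not tested beyond the values per epithelial UMI given with them.

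Between the crypt end and the tip end, 28 of 36 members were past 2-fold, against 45.4% of 11000 genes: 27 were higher at the tip (11.4% of all genes) and 1 was lower (33.9%). The median log2 ratio of tip over crypt was 2.91 for the members and -0.67 for all genes. Per epithelial UMI all genes shifted by -0.72 and 25 members were higher and 2 lower. Slc1a1, Slc7a8, Slc40a1 and Mgam, none of them called, changed sign. The median on that scale was 2.19 for the members and -1.39 for all genes, whose share called is not given here. Of the 25 other absorption genes 17 of 22 tested were higher and 2 lower, and 11 of 12 microvillus genes were higher.

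Bin 3, the middle of the ranking, was closer to bin 5 than to bin 1 for most members. From bin 1 to bin 3, 31 members were past 2-fold, against 29.9% of 11055 genes; 30 were higher (8.43% of all genes) and 1 was lower (21.5%), with a median of 2.46. The highest of their role groups in this step were Slc5a1 (2.45), Slc15a1 (2.94), Slc7a7 (2.30), Slc34a2 (3.17), Slc30a10 (2.89), Sis (3.24) and Naaladl1 (3.15). The lowest were Slc2a5 (2.07), Slc1a5 (-2.26), Slc7a8 (0.49), Slc16a1 (-0.13), Slc11a2 (1.22), Mgam (0.63) and Alpi (2.42). Counted per epithelial UMI, with all genes shifted by -0.79, 24 were higher and 1 lower. The median was then 1.67 for the members and -1.19 for all genes, whose share called is not given here. From bin 3 to bin 5, 4 were past 2-fold, against 6.08% of 10477 genes: Slc28a2, Alpi and Slc6a19 were higher (2.41% of all genes) and Slc1a1 was lower (3.67%), with a median of 0.30. Of the members not called in this step, Slc5a1 (0.61), Slc7a7 (0.30), Slc39a4 (0.82) and Treh (1.10, under 2-fold in section 2) were the highest of their role groups. Slc2a5 (-0.23), Slc7a8 (-0.05), Slc16a1 (-0.33), Slc40a1 (-0.58), Sis (-0.36) and Mep1a (0.20) were the lowest of theirs. In section 1 alone, without section 2, this last count was 7 in place of 4, and with 3 bins in place of 5 it was 2. Of the 36 members, 25 peaked in the same bin in both sections: 13 in bin 4, 10 in bin 5, Slc11a2 in bin 3 and Slc1a5 in bin 1.

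Slc28a2 stood apart from the others by its place. From bin 1 to bin 5 it was at 23.7, 34.6, 42.5, 77.0 and 497 CPM in section 1. In section 2 it was at 39.2, 49.4, 53.8, 122 and 756 CPM. It stayed low up to bin 4 and was high at the tip alone, with log2 ratios of tip over middle of 3.55 and 3.81. Its middle over crypt ratios of 0.84 and 0.46 were not called, and per epithelial UMI the ratio was -0.14. Ada, adenosine deaminase, is 1 of the 10 tip landmark genes that ranked the spots, so its profile (27.3, 53.2, 60.3, 122 and 730.5 CPM in section 1) is a description of the axis.

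Slc1a5 had the opposite profile. It was at 130, 70.6, 31.8, 23.5 and 30.4 CPM in section 1 and at 172, 61.8, 30.8, 22.8 and 24.1 CPM in section 2, so bin 1 was the highest in both. Its tip over crypt ratios were -2.10 and -2.84. The fibroblast list went the same way, from 1674 and 1606 CPM in bin 1 to 476 and 384 CPM in bin 5, and the lymphatic endothelial list went from 77.7 and 94.8 to 19.2 and 16.1 CPM. Their part in the Slc1a5 ratio was not tested. Slc1a1, the glutamate and aspartate transporter, peaked in bins 2 and 3 instead. It was at 80.0, 270.2, 388, 274 and 146 CPM in section 1 and at 139, 392, 372, 284 and 140.4 CPM in section 2. Both ends were low, and its tip over middle ratio of -1.41 was the only one called lower.

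In the sugar group Slc5a1 went from 234 and 424 CPM in bin 1 to 2342 and 2954 CPM in bin 5 and peaked there (tip over crypt 3.06). Slc2a5 peaked in bin 4 at 71.7 and 85.3 CPM and was at 50.0 and 49.5 CPM in bin 5 (tip over crypt 1.85). The amino acid transporters fell into those that climbed to the tip and those that peaked before it. Slc6a19 was at 58.1, 191, 388, 957 and 1236 CPM in section 1 and at 99.3, 295, 644, 1211 and 1387 CPM in section 2 (tip over crypt 4.11, tip over middle 1.39). Slc3a1 peaked in bin 5 and its partner Slc7a9 in bin 4, in both sections, with tip over crypt ratios of 3.93 and 3.72 for Slc3a1 and of 3.20 and 2.55 for Slc7a9. Slc36a1 stayed between 18.5 and 28.4 CPM in all 10 bins. Of the basolateral genes, Slc7a7 had a tip over crypt ratio of 2.60 and Slc7a8, the light chain for neutral amino acids, one of 0.43.

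Among metal and vitamin genes, Slc30a10 had the highest tip over crypt ratio (8.30 and 19.4 CPM in bin 1, 138 and 157 CPM in bin 5, ratio 3.54). The iron genes peaked before the tip. Slc40a1 was at 26.7, 63.9, 65.5, 46.2 and 40.3 CPM in section 1 and at 23.6, 58.4, 55.9, 42.1 and 40.3 CPM in section 2, with a ratio of 0.68 that was -0.04 per epithelial UMI. Slc11a2, which brings iron in from the lumen, peaked in bin 3 at 50.3 and 53.8 CPM. The folate transporter Slc46a1 peaked in bin 3 of section 1 and in bin 2 of section 2. The phosphate cotransporter Slc34a2 climbed from 21.9 and 50.8 to 549.5 and 675 CPM. Slc16a1 was at 89.8 and 100.3 CPM in bin 1 and at 74.1 and 64.8 CPM in bin 5 (ratio -0.45, not called).

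The disaccharidases differed in place. Sis was at 71.1, 415, 845, 1113 and 739 CPM in section 1 and at 131, 612, 991, 1143 and 685 CPM in section 2, so it peaked in bin 4 and was lower again at the tip. Treh, trehalase, peaked at the tip (66.2 and 94.9 CPM; tip over crypt 3.16). Mgam varied least, from 446 and 501 CPM in bin 1 to 588 and 612 CPM in bin 5 (0.34, and -0.38 per epithelial UMI). All 8 peptidase and phosphatase genes were higher at the tip than in the crypt, from Mep1a (2.84) to Alpi (3.97). Alpi, the intestinal alkaline phosphatase, was at 22.2, 86.6, 137, 251 and 446 CPM in section 1 and at 51.8, 128, 241, 393 and 633 CPM in section 2, still climbing in the last bin, while Anpep, Enpep, Mep1a and Mep1b peaked in bin 4.

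**Figure D2:**
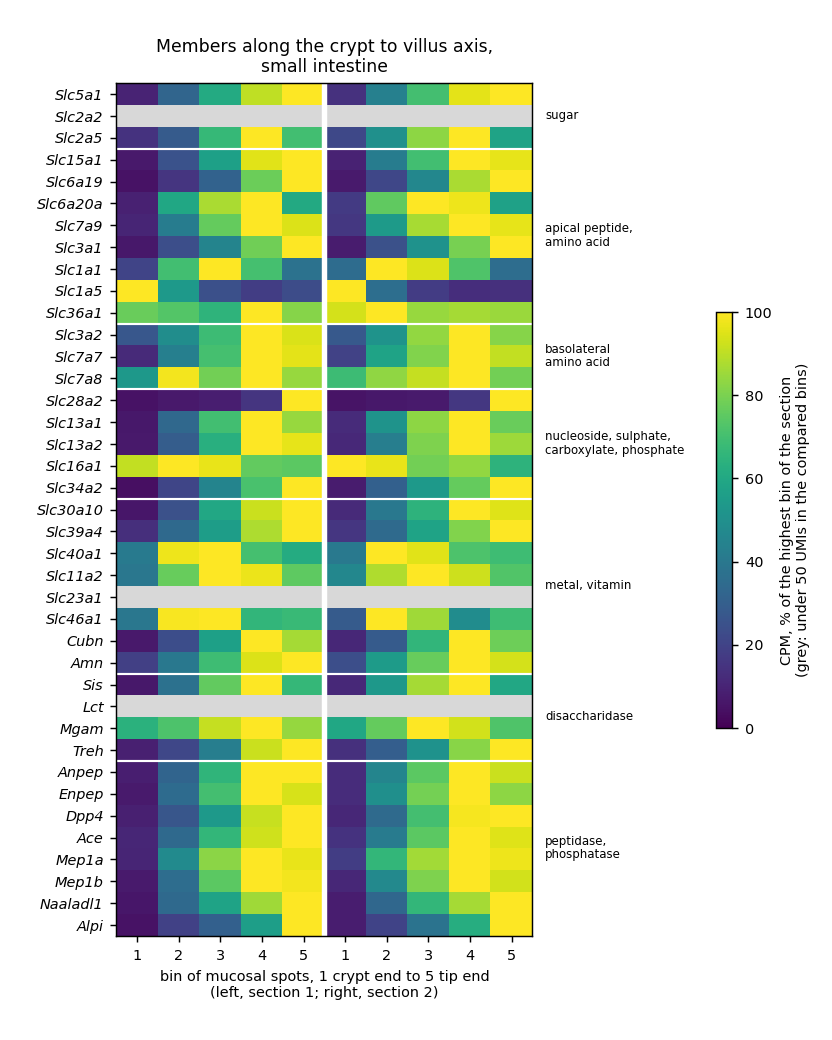
Level of each member (rows) in the 5 bins of small intestinal mucosal spots, left to right from crypt end to tip end, for section 1 and section 2. Colour gives CPM as a percentage of the highest bin of that section; Slc28a2 is bright in bin 5 alone, Slc1a5 in bin 1, and most rows in bins 4 and 5.

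The promoter windows of 4 members with unlike profiles are printed, chosen after their values were seen (Sis, highest before the tip; Slc28a2, at the tip alone; Alpi, climbing to the tip; Slc6a20a, opposite in the 2 tissues). They come from RefSeq (GRCm38.p6), run 5′ to 3′ on the gene's strand from 250 bases before to 10 bases after the annotated start, and have matches to the motifs searched in capitals. Sis lies on the minus strand at chr3:72967854-72968113, Slc28a2 on the plus strand at chr2:122426185-122426444, Slc6a20a on the minus strand at chr9:123678823-123679082 and Alpi on the minus strand at chr1:87101597-87101856.
Sis: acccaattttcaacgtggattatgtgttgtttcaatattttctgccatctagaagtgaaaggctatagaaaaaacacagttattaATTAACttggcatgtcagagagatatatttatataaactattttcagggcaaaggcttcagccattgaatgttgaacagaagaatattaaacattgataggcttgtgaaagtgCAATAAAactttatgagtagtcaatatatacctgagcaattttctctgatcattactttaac
Slc28a2: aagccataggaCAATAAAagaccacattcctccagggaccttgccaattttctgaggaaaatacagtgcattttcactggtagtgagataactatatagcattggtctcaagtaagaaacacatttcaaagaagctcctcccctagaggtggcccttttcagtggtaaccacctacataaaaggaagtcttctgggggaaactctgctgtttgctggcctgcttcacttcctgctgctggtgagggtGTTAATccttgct
Slc6a20a: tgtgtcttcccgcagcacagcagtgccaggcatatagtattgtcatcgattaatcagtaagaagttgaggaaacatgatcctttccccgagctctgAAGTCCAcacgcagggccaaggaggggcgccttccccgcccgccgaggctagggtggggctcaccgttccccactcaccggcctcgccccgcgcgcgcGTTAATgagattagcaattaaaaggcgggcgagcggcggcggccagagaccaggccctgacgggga
Alpi: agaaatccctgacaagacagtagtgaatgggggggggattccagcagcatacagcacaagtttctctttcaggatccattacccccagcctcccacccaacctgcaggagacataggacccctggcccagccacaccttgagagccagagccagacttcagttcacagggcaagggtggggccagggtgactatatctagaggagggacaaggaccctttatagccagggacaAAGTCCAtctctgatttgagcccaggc
The search took exact matches on both strands to motifs named for factors known to act in gut epithelium, in windows of 300 bases (250 before and 50 after the start), which 31 of the 39 members had. The HNF1 half-site GTTAAT was present in 5 members (16.1%) and in 7.2% of all 27025 windows. The HNF4 half-site AAGTCCA was in 4 members (12.9%) and in 4.14% of all windows. The CDX motif, TTTATTG with its variant form TTTATGG, was in 5 members (16.1%) and in 7.46% of all windows. The GATA motif AGATAAG was in 2 members (6.45%) and in 3.07% of all windows. No printed matches overlap each other. Sis held GTTAAT on its minus strand 165 bases before the start and a CDX motif 52 bases before it. Slc28a2 held a CDX motif 239 bases and GTTAAT 3 bases before the start used for its window. The annotated gene of Slc28a2 begins earlier, at chr2:122426357, so its GTTAAT lies after that position. Slc6a20a held AAGTCCA and GTTAAT 154 and 56 bases before the start, and Alpi AAGTCCA 17 bases before it. A match is a description of the letters and shows no binding.

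The same ranking in the large intestine, with a colon surface list in place of the tip list, split 1785 and 1891 mucosal spots into 5 bins; 165 and 209 spots lay within 0.05 of a limit. Of the 30 members with enough UMIs, 19 were past 2-fold, against 41.3% of 12351 genes: 15 were higher at the surface than at the crypt end (9.98% of all genes) and 4 were lower (31.3%). The median log2 ratio was 1.40 for the members and -0.60 for all genes. By role, 4 of 7 apical amino acid genes, 4 of 5 metal and vitamin genes and 5 of 7 peptidase and phosphatase genes were higher, and 0 of 2 sugar and 0 of 3 basolateral genes. The epithelial list itself went from 10342 and 10220 CPM at the crypt end to 25139 and 25964 CPM at the surface. Between the same ends the goblet list went from 22776 and 20274 to 46988 and 46495 CPM, the plasma cell list from 28519 and 27780 to 16713 and 16368 CPM, and the lymphatic endothelial list from 111 and 126 to 26.4 and 24.8 CPM. The part of these cells in the member ratios was not tested. Per epithelial UMI, where all genes shifted by -1.31, 9 members were higher and 13 lower, and Slc16a1 and Slc11a2 changed sign. The median there was 0.08 for the members and -1.91 for all genes. The share of all genes called on that scale is not given here, so the 13 cannot be set against it. Of the other lists, 7 of 18 absorption genes and 10 of 11 microvillus genes were higher at the surface.

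Slc15a1 had the highest ratio. It was at 4.31, 8.34, 25.2, 102 and 229.9 CPM from crypt end to surface in section 1 and at 4.02, 8.11, 24.9, 103 and 221 CPM in section 2 (ratio 5.76). Slc34a2 went from 1.28 and 1.18 to 71.7 and 61.5 CPM (5.75), and Slc7a9 and Slc3a1 also had their highest bin at the surface. Both meprin subunits were among the surface genes: Mep1a went from 13.5 and 11.4 to 296 and 297 CPM, and Mep1b from 8.04 and 7.45 to 239.8 and 243 CPM (4.96). Alpi had the same direction at a low level, from 0.116 and 0.237 to 6.22 and 5.98 CPM.

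Slc40a1, which peaked below the tip in the small intestine, was higher in each successive bin here, with 23.4, 82.6, 138, 192 and 238 CPM in section 1 and 22.1, 74.1, 139, 199 and 230.4 CPM in section 2 (3.36). Slc13a2 went from 33.0 and 34.1 to 343 and 339 CPM. The folate transporter Slc46a1 went from 11.2 and 9.23 to 49.1 and 44.4 CPM, the zinc importer Slc39a4 from 62.1 and 50.0 to 237 and 235 CPM. Slc36a1 was higher at the surface too (43.3 and 38.7 to 113 and 108 CPM), with its peak in bin 4. Per epithelial UMI Slc36a1 (0.12), Slc46a1 (0.89) and Slc39a4 (0.77) were within 2-fold. Slc40a1 (2.05) and Slc13a2 (2.03) stayed higher on that scale.

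Of the lower members, Slc6a20a, which takes up proline and other imino acids, was at 5.82, 4.73, 2.83, 0.951 and 0.990 CPM in section 1 and at 3.90, 4.67, 2.28, 1.42 and 0.249 CPM in section 2 (ratio -2.97, on 7 and 2 UMIs at the surface). Slc2a5 went from 2.80 and 6.15 to 0.990 and 0.499 CPM (-2.56). It too had few UMIs at the surface, and its ratios in the sections were unlike, at -1.50 and -3.62. Dpp4, a proline-specific dipeptidyl peptidase, went from 35.1 and 29.7 to 9.76 and 10.7 CPM (-1.66). Slc1a5 was lower at the luminal end in both tissues, here from 145 and 144 to 67.7 and 66.2 CPM. Slc5a1 stayed between 67.3 and 82.9 CPM in all 10 bins, Anpep between 2.83 and 5.08 CPM, and Mgam was at 149 and 139 CPM at the crypt end and at 105 and 104 CPM at the surface. Slc11a2 had the lowest ratio of the metal and vitamin group (24.8 and 22.7 CPM at the crypt end, 26.9 and 28.8 CPM at the surface, 0.23), and Slc28a2 that of its group (2.68 and 1.30 against 1.56 and 1.50 CPM, -0.29). Of the basolateral genes Slc3a2 was at 47.2 and 40.2 CPM at the crypt end and at 39.2 and 45.3 CPM at the surface (-0.05), and Slc7a8 at 4.66 and 3.08 against 2.40 and 1.37 CPM (-1.06, under 2-fold in section 1).

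In 10 of the 30 members tested along both axes, the ratio of the luminal over the crypt end had opposite signs in the 2 tissues in every section, against 10.5% of 10737 genes. Per epithelial UMI 6 of these kept opposite signs (Slc5a1, Slc2a5, Slc6a20a, Slc7a7, Anpep and Dpp4). On that scale 4 other members had opposite signs (Slc36a1, Slc3a2, Slc28a2 and Slc11a2), which makes 10 members in all. The share of all genes is given for the CPM scale only. Slc11a2 was near level in small (0.07) and Slc36a1 in large intestine (0.12).

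**Figure D3:**
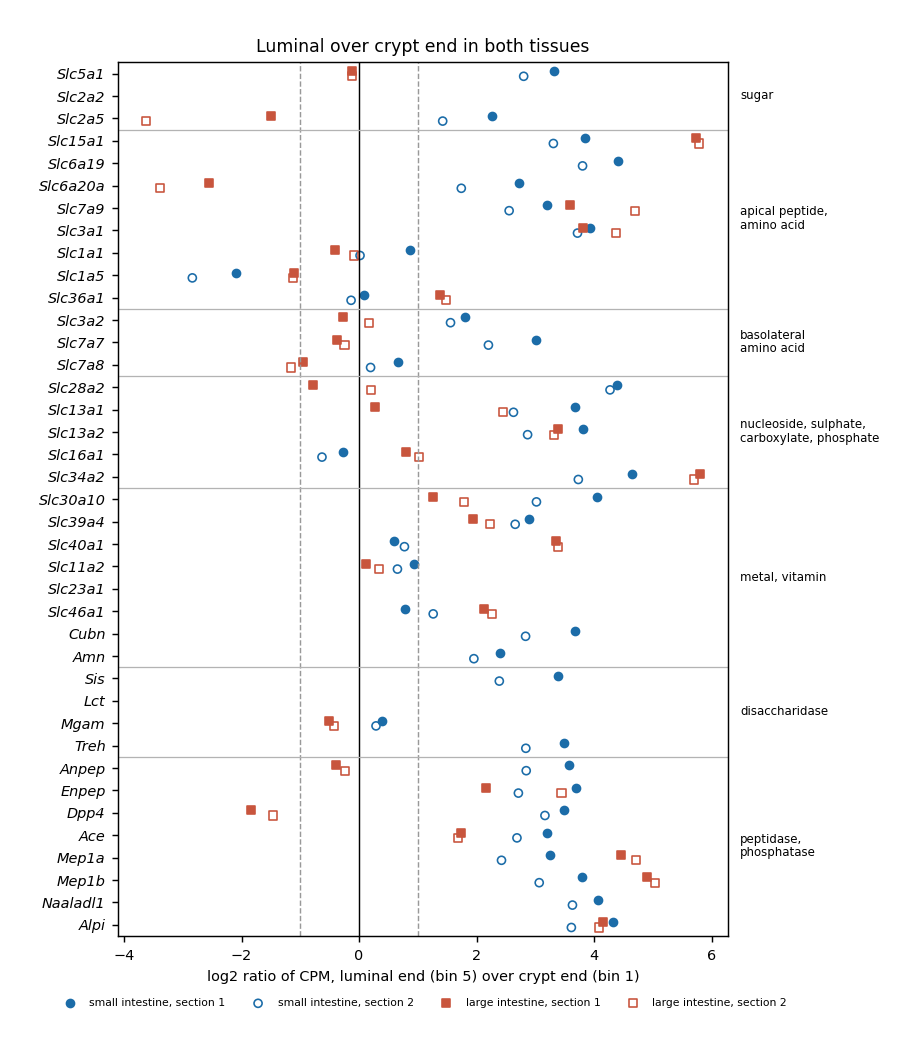
Log2 ratio of CPM of the luminal end (bin 5) over the crypt end (bin 1) for each member in each section (blue circles small intestine, red squares large intestine; dashed lines at 2-fold). Slc2a5, Slc6a20a and Dpp4 lie right of 0 in small and left of 0 in large intestine, while Slc15a1, Slc34a2 and the meprin genes lie right of 0 in both.

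The sorted cells give the members by cell class, with clusters made without the members. Small intestinal clusters 9, 15 and 16 (399 cells) met the marker rule for enterocytes and large intestinal clusters 0, 13 and 15 (506 cells) that for colonocytes. They are compared by number, because the leading genes of small intestinal clusters 15 and 16 include 1 colonocyte marker each (Cyp2c55, Car4) and no enterocyte marker. Ileal list genes (Fabp6, Slc10a2, Slc51a) were among the leading genes of large intestinal cluster 13. Each library was named without the absorptive class of the other tissue, a choice made after the data had been seen. With both classes allowed, small intestinal clusters 10, 15 and 16 took the colonocyte name, cluster 9 alone and large intestinal cluster 4 took the enterocyte one, and 25 members were higher and 5 lower. Shares of all genes are given only for the names used here, as follows. Of 39 members, 33 were past 2-fold, against 28% of 10634 genes: 29 were higher in the small intestinal clusters (9.65% of all genes) and 4 were lower (18.4%), with a median of 3.33 against -0.16 for all genes.

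Lct, lactase, had 1138 UMIs in the small intestinal clusters and 0 in the large intestinal ones, at least 428-fold higher. Slc2a2 had 720 and 0 UMIs, 271-fold higher in the same way (log2 ratio 8.08, lower counting limit 7.78). Both had under 50 UMIs over the 4 sections. Slc6a19 was at 87.8 and 0.376 CPM (log2 ratio 7.87, interval 6.64 to 9.49) and Sis at 1405 and 6.46 CPM (7.76, 7.46 to 8.09). Of the basolateral genes Slc7a8 had the highest ratio (99.7 and 1.88 CPM, 5.73) and Slc7a7 the lowest (154 and 29.1 CPM, 2.41). Among the peptidases Anpep was at 680.2 and 7.14 CPM (6.57), and Mep1a, at 116 and 173 CPM, was within 2-fold. The large intestinal UMIs of Sis and Anpep came mostly from cluster 13. It held 82 of the 86 Sis UMIs (22.2 CPM, against 0.139 and 1.24 CPM in clusters 0 and 15) and 92 of the 95 Anpep UMIs.

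The 4 lower members were all carriers. Slc40a1 was at 9.75 CPM in the small and at 79.6 CPM in the large intestinal clusters (-3.03, -3.32 to -2.75), Slc1a5 at 6.28 and 34.0 CPM (-2.44), Slc13a2 at 26.4 and 107.6 CPM (-2.03) and Slc16a1 at 41.0 and 120.0 CPM (-1.55). Slc40a1 and Slc16a1 were lower in the small intestinal sections too, and Slc13a2 was not. Slc13a2 was uneven among the clusters: it was at 18.2, 127 and 13.5 CPM in small intestinal clusters 9, 15 and 16 and at 86.5, 208 and 16.6 CPM in large intestinal clusters 0, 13 and 15, so the ranges of the 2 tissues overlapped. Slc36a1 and Slc46a1, lower in the small intestinal sections, were within 2-fold in the cells (-0.21 and 0.47). Slc5a1 was at 60.3, 50.1 and 60.0 CPM in large intestinal clusters 0, 13 and 15, and Mgam at 73.9, 71.5 and 71.2 CPM. Large intestinal stem-like cells had 51.0 CPM of Slc5a1 and 125 CPM of Mgam, so neither was particular to these clusters.

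By role, all 3 sugar, all 3 basolateral and all 4 disaccharidase genes were higher in the small intestinal clusters, as were 7 of 8 peptidase and phosphatase genes and 6 of 8 apical amino acid genes. Of 8 metal and vitamin genes 3 were higher and 1 lower, with a median log2 ratio of 0.81, and of 5 nucleoside and anion genes 3 were higher and 2 lower. Slc28a2 had 130 UMIs against 3 (5.61, 4.03 to 7.91) and Slc23a1 58 against 2 (4.45, 3.11 to 8.11), both too few in the large intestine for a close ratio. Of 20 other absorption genes 12 were higher and 3 lower. The highest was the sphingomyelinase Enpp7 (589 against 0 UMIs, 222-fold with the 0 set to 3, log2 ratio 7.79, lower counting limit 7.49). The lowest was the amino acid transporter Slc6a14 (2 against 3302 UMIs, -9.93, -13.56 to -8.66). Of 12 microvillus genes 6 were higher and 0 lower.

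**Figure D4:**
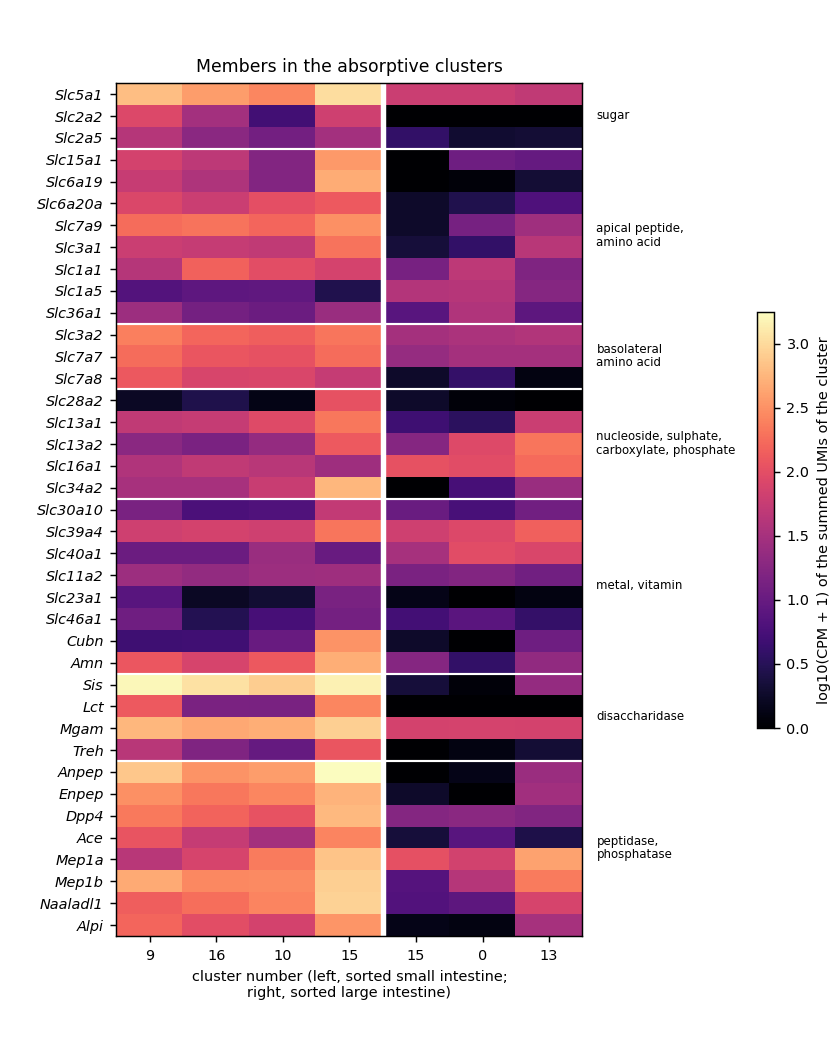
Colour gives log10(CPM + 1) of the summed UMIs of each member (rows) in small intestinal clusters 9, 16, 10 and 15 (left) and large intestinal clusters 15, 0 and 13 (right). Slc28a2, Cubn and Slc34a2 are bright in small intestinal cluster 15, and Slc40a1, Slc16a1 and Slc1a5 are brighter on the right.

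The absorptive clusters of the small intestine differed among themselves. Cluster 15 (82 cells, median 8349.5 UMIs) had more of 4 of the 5 ileal list genes than clusters 9, 10 and 16, with Fabp6 at 26144 CPM, while Nr1h4 was at 58.1 CPM in it and at 93.4 CPM in cluster 16. It also held tip landmark genes, with Krt20 at 1867 CPM and Apoa4 at 2809 CPM. Clusters 9, 10 and 16 were deeper, with medians of 33639, 28958 and 34227.5 UMIs. The nuclear RNA Neat1 was at 757 CPM in cluster 15 and at 186, 244 and 155 CPM in clusters 9, 10 and 16. The part of depth and of the RNA quality that Neat1 can mark in the differences of cluster 15 was not tested. Cluster 10 (95 cells, Fabp6 at 12205 CPM) was left unnamed by the marker rule. It was therefore in neither the comparison of the tissues nor the next one. In cluster 15 against clusters 9 and 16 (317 cells), 23 of 39 members were past 2-fold, against 30.9% of 8695 genes: 22 were higher in cluster 15 (10.6% of all genes) and 1 was lower (20.3%), with a median of 1.35 against -0.18. This count depended on the processing: it was 12 (8 higher, 4 lower) with cells of up to 50% mitochondrial UMIs, 11 (9 and 2) at clustering resolution 0.5 and 15 with doublets kept.

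Slc28a2 and Cubn, whose receptor takes up cobalamin in the ileum, had the highest ratios. Slc28a2 was at 109 CPM in cluster 15 and at 1.12 CPM in the others (log2 ratio 6.60, 5.74 to 7.59), and Cubn at 334 and 3.83 CPM (6.45). The 118 UMIs of Slc28a2 came from 12 of the 82 cells, 27.1% of them from 1 cell, while Cubn was spread over 56 cells. With cells of up to 50% mitochondrial UMIs the direction of the Slc28a2 ratio turned, to -4.379. Slc34a2 was at 579 and 31.9 CPM (4.18), Mep1a at 705 and 56.8 CPM (3.63) and Slc6a19 at 489 and 47.2 CPM (3.37). Sis (0.05), Slc2a5 (-0.07), Slc3a2 (0.01) and Slc40a1 (-0.09) were nearly level. All 8 peptidase and phosphatase genes and 4 of 5 in the nucleoside and anion group were higher in cluster 15, against 0 of 3 sugar and 0 of 3 basolateral genes. Several of these turned with the processing: Ace (-0.4766) and Alpi (-0.6086) were below 0 at up to 50% mitochondrial UMIs, and Anpep (-0.0911), Ace (-0.239) and Alpi (-0.175) at clustering resolution 0.5. Treh (1.94) and Lct (1.76), the disaccharidases called, turned under both settings. Enpep (1.01) was the lowest of the peptidases, Slc5a1 (0.99) the highest of the sugar genes and Slc16a1 (-0.67) the lowest of its group. Slc7a7 (0.23) and Slc7a8 (-0.94) were the ends of the basolateral group. Slc1a5 was the lower one, on 2 UMIs in cluster 15 (-1.28, -4.94 to 0.04).

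Clusters 10, 15 and 16 each mixed cells with much and with little Fabp6, so a comparison within each cluster was added after the data had been seen, at a limit of 10 Fabp6 UMIs per 10000. Cluster 10 held 42 cells above and 53 below it, cluster 15 held 43 and 39, and cluster 16 held 29 and 101; 5, 8 and 11 cells lay between limits of 5 and 20. Fabp1 was lower in the Fabp6-high cells of each cluster (34.9 against 753 CPM in cluster 10, 539 against 2333 in cluster 15 and 39.4 against 1438 in cluster 16). Of the members tested, 7 of 26 were higher and 0 lower in cluster 10 (all genes 2.8% and 2.67%). In cluster 15, 5 of 31 were higher and 5 lower (10.6% and 5.59%), and in cluster 16, 5 of 32 were higher and 4 lower (1.49% and 2%).

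Slc13a1, Slc13a2 and Mep1a were higher in the Fabp6-high cells of all 3 clusters. Slc13a1 was at 187 against 23.1 CPM in cluster 10, 312 against 55.7 in cluster 15 and 128 against 31.9 in cluster 16, log2 ratios of 3.02, 2.49 and 2.01. Mep1a had ratios of 3.58, 1.32 and 2.35, and Slc13a2 of 1.92, 1.44 and 2.35. Slc6a20a, Slc34a2 and Naaladl1, a brush border peptidase, were higher in 2 clusters. Lct, Slc2a2 and Alpi were lower in 2 clusters; Lct was at 113 against 503 CPM in cluster 15 and had 1 against 61 UMIs in cluster 16.

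In cluster 15 Slc28a2 was higher in the Fabp6-low cells. It was at 9.18 CPM in the Fabp6-high and at 259.8 CPM in the Fabp6-low cells (log2 ratio -4.82, -6.30 to -3.66), whereas cluster 16 had 6 UMIs of it in Fabp6-high and 2 in Fabp6-low cells, and cluster 10 had 1 in all, both under the minimum. The Fabp6-low cells of cluster 15 also had more of the tip landmark genes compared here. Apoa4 was at 6529 against 355 CPM, Ada at 380.4 against 18.4 CPM and Krt20 at 2741 against 1290 CPM. The other tip landmark genes were not compared within clusters. Krt20 went the other way in cluster 10 (371 in Fabp6-low against 701 CPM in Fabp6-high cells) and in cluster 16 (458 against 639 CPM). Apoa4 did not (33.4 against 11.1 and 38.4 against 8.24 CPM). The part of gut region and of place on the villus in these ratios was not tested. Limits of 5 and 20 gave 7 and 7 called members in cluster 10, 11 and 10 in cluster 15 and 8 and 9 in cluster 16.

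Some members had their highest level among the cell classes of a library outside the absorptive clusters. Ace, angiotensin-converting enzyme, was highest in blood endothelial-like cells of both tissues, at 461 and 437 CPM on 67 and 174 UMIs, and at 105 CPM in small intestinal clusters 9, 15 and 16. Slc3a2 was highest there as well, at 427 and 442 CPM. Slc1a5 was highest in fibroblast-like cells (108 and 86.5 CPM) and next in goblet-like cells (97.2 and 80.3 CPM). These are cell classes of the lamina propria and of mucus-secreting epithelium, which every spot may hold. Small intestinal clusters 9, 15 and 16 together were highest for 29 members. Slc40a1 was at 69.8 CPM on 28 UMIs in smooth muscle or pericyte-like cells and at 9.75 CPM in those clusters. Slc28a2 was at 41.1 CPM on 10 UMIs in T, NK or innate lymphoid-like cells and at 11.0 CPM in those clusters. This lymphoid list went from 29.6 and 44.3 CPM in bin 1 to 204 and 144 CPM in bin 5. The part of these cells in the spot profiles was not tested.

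Several members had UMIs in enteroendocrine-like cells, the hormone-producing cells of the epithelium. In the 32 such cells of the small intestine (median 12891 UMIs) Sis was found in 22 cells (68.8%, Clopper-Pearson interval 50.0 to 83.9, 596 CPM) and in 9 of 99 tuft-like cells (9.09%, 4.24 to 16.6, median 16150 UMIs). Slc6a19 was found in 19 of the 32 cells (143 CPM) and in 0 of the 99 tuft-like cells, which allows a share of cells with a UMI of up to 3.03% (3 cells). In 224 goblet-like cells (median 25387.5 UMIs) Sis was found in 61 (27.2%, 21.5 to 33.6) and Slc6a19 in 7 (3.13%, 1.27 to 6.33). The level of Slc6a19 in clusters 9, 15 and 16 was 55.5, 489 and 36.1 CPM. Slc36a1 was at 75.0 CPM against 25.4, 24.0 and 11.7 CPM in those clusters. It was found in 14 of the 32 cells (43.8%, 26.4 to 62.3), in 17 of the 99 tuft-like cells (17.2%, 10.3 to 26.1) and in 48 of the 224 goblet-like cells (21.4%, 16.2 to 27.4). In the enteroendocrine-like cells Slc2a2, Lct, Treh and Slc28a2 had 0 UMIs.

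In the 50 large intestinal enteroendocrine-like cells (median 11029 UMIs) Slc6a19 had 22 UMIs in 7 cells, and Sis had 53 UMIs in 8 cells. Both were found in 0 of 76 tuft-like cells (median 15220.5 UMIs), which allows a share of cells with a UMI of up to 3.95% (3 cells). Of 1329 goblet-like cells (median 26569 UMIs), Sis was found in 2 and Slc6a19 in 0, which allows a share of cells with a UMI of up to 0.226% (3 cells). In clusters 0, 13 and 15 together (506 cells) they had 5 and 86 UMIs. Free RNA in the droplets gives UMIs in cells that do not express a gene, and the shares in tuft-like and goblet-like cells are the background given for it here. The part of droplets with more than 1 cell in the enteroendocrine-like values was not tested.

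The last comparison set cocultured against control organoids, with 1028 and 538 cells kept and median depths of 86295 and 73663.5 UMIs per cell. Of 36 members tested, 7 were past 2-fold, against 5.36% of 12623 genes: 6 were higher in coculture (1.77% of all genes) and 1 was lower (3.6%), with a median of 0.34 against -0.10 for all genes. Enterocyte-like cells (clusters 8 and 13) made up 174 of 1028 cocultured cells (16.9%, Clopper-Pearson interval 14.7 to 19.4) and 50 of 538 control cells (9.29%, 6.98 to 12.1). With all deposited cells the count was 3 higher and 1 lower, and with median-of-ratios scaling, which shifted all genes by 0.15, it was 8 and 1.

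The higher members were sugar, anion and peptidase genes. Slc2a5 was at 5.04 CPM in control and 15.1 CPM in coculture (log2 ratio 1.58, 1.38 to 1.80) and Slc2a2 at 26.1 and 52.3 CPM (1.00). Anpep was at 23.7 and 66.9 CPM (1.50) and Enpep, a glutamyl aminopeptidase, at 11.8 and 24.9 CPM (1.08). Slc13a2 was at 8.85 and 20.5 CPM (1.21) and Slc13a1 at 3.35 and 7.60 CPM (1.18). In control organoids their UMIs came from 57 (Slc2a5) to 144 (Anpep) of 538 cells, with at most 12.8% from 1 cell.

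Apart from these 6 and Slc28a2, which was lower, the members tested were within 2-fold over all cells. Slc5a1 was at 283 and 349 CPM (0.30) and Sis at 225 and 401 CPM (0.84). Slc6a19, the highest of the apical amino acid genes, was at 12.3 and 24.2 CPM (0.98), and Slc36a1, the lowest, at 2.87 and 2.24 CPM (-0.36). The basolateral genes lay between Slc3a2 (0.01) and Slc7a8 (0.37). Among metal and vitamin genes the iron importer Slc11a2 was at 40.6 and 64.8 CPM (0.67) and the folate transporter Slc46a1 at 20.5 and 15.2 CPM (-0.43). Mgam (0.13) and Alpi (0.05) were the lowest of their groups, and Alpi was at 462 and 479 CPM. When cells were weighted equally instead of by their UMIs, 6 members changed sign (Slc15a1, Slc3a1, Slc3a2, Slc39a4, Mep1a and Alpi). Of 21 other absorption genes 2 were higher and 1 lower, and of 12 microvillus genes 0 were past 2-fold.

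Within the enterocyte-like cells, none of the 6 members that were higher over all cells (Slc2a5, Slc2a2, Anpep, Enpep, Slc13a2 and Slc13a1) was past 2-fold in the summed CPM. Of 34 members tested there, 2 were past 2-fold, against 3.74% of 8857 genes: 0 were higher (2.05% of all genes) and 2 were lower (1.68%), with a median of 0.04 against -0.01. With median-of-ratios size factors, and also with cells weighted equally, 1 member was higher in place of 0. Anpep was at 161 and 307 CPM (0.93), Slc13a1 at 13.9 and 27.5 CPM (0.99) and Slc2a5 at 46.2 and 83.4 CPM (0.85). Slc2a2, at 245.5 and 286 CPM, and Enpep, at 100.3 and 110.4 CPM, were closer to level (0.22 and 0.14). Sis was at 1772 and 1886 CPM (0.09), and Lct had the lowest ratio of the disaccharidases (-0.48). The other ends of the role groups were Slc5a1 (-0.38), Slc6a20a (0.34), Slc7a8 (0.38), Slc7a7 (0.05), Amn (0.17), Slc46a1 (-0.92) and Mep1a (-0.48). Slc15a1 was lower in coculture, at 41.6 and 13.7 CPM (-1.60, -1.91 to -1.29), on 153 UMIs in 25 control cells and 198 UMIs in 67 cocultured cells; over all cells it was at 3.95 and 3.31 CPM.

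Slc28a2 had the lowest ratio in both comparisons. Over all cells it was at 14.5 CPM in control and at 2.10 CPM in coculture (-2.79, -3.02 to -2.56). In the enterocyte-like cells it had 94 UMIs, 49 of them in 1 cell, against 2 (-6.94, counting limits -10.59 to -5.63). Most of its UMIs lay elsewhere, in cluster 7, led by Ly6d, Msln, Clu and Anxa1 and not named: 460 of 628 UMIs in control and 178 of 204 in coculture. In that cluster its level was alike, at 74.9 and 62.9 CPM, and the cluster held 82 of 538 control and 36 of 1028 cocultured cells. Few cells carried it: the 4 highest control cells held at least 50% of all its UMIs, and 1 cocultured cell held 42.6%. In cluster 8, where control cells had 93 UMIs and cocultured cells 2, the tip landmark gene Ada was at 976 and 26.7 CPM. Other tip landmark genes differed less there, with Krt20 at 760 and 477 CPM and Apoa4 at 17826 and 9105 CPM. The part of the cluster shares in the ratio over all cells was not tested.

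**Figure D5:**
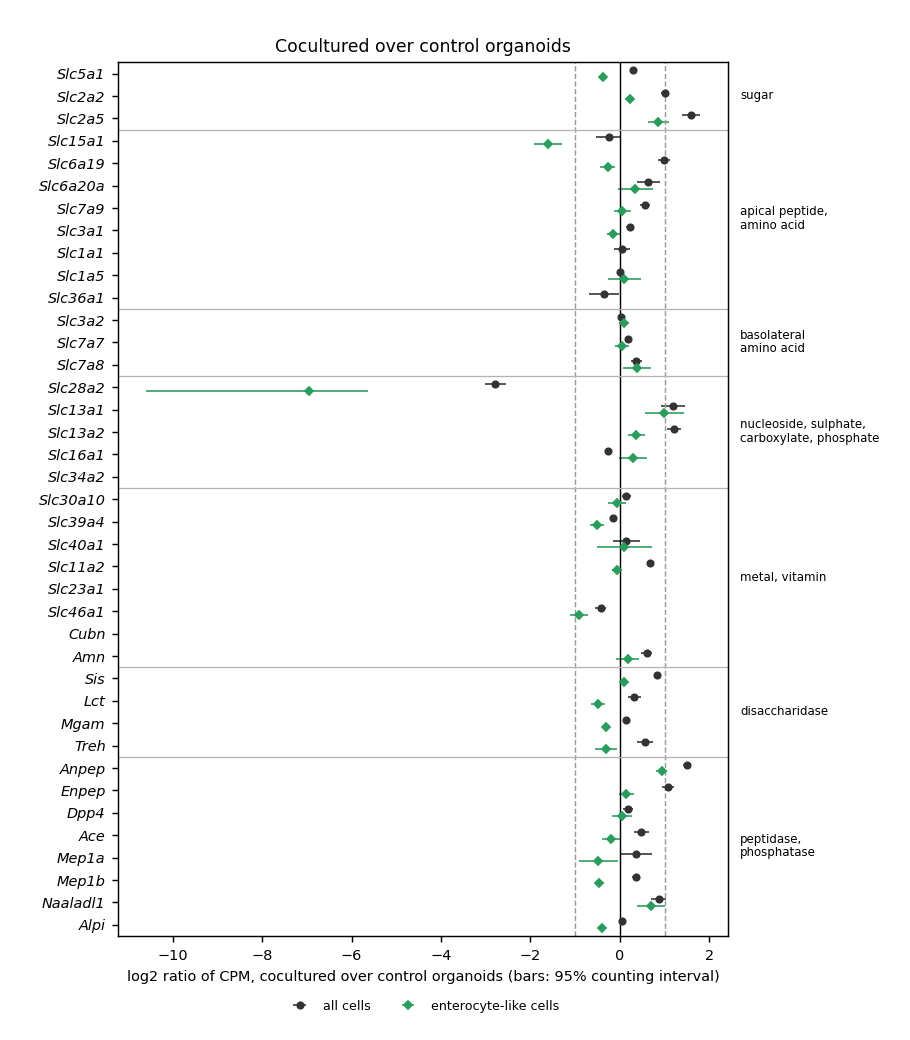
Log2 ratio of CPM, cocultured over control organoids, for each member over all cells (black) and in enterocyte-like cells (green), with 95% counting intervals and dashed lines at 2-fold. Members without a point had under 50 UMIs; Slc28a2 lies left of -2 in both.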

How the data were processed

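The deposited matrices hold raw UMI counts per gene and barcode, made by the authors with Cell Ranger 6.0.1 (single cells) and spaceranger 1.2.1 (Visium), per the file headers, on mm10, per the submitters' processing notes; the annotation release is not given in the sources used here. Analysis used Python 3.11.15 with numpy 2.4.6, scipy 1.17.1, pandas 2.3.3 and scanpy 1.11.5. Spots needed 500 UMIs. Cells needed 500 genes and at most 20% mitochondrial UMIs, and the top Scrublet scores were removed as doublets at 0.8% per 1000 cells. Cells were clustered (Leiden, resolution 1, 2000 variable genes, 30 components, 15 neighbours) without the members, the other absorption genes and the microvillus genes. UMIs were summed per section, bin or class, and ratios were computed over all genes with at least 50 UMIs. Ratios were tested on simulated data with known changes. In each role group the members with the highest and the lowest ratio were named with their ratio, and the other members named were chosen after their values were seen. The members and lists were chosen with earlier results of these data known. Of the 32285 gene IDs, 32158 matched the gene name table. Alternatives covered the scaling, UMI minimum, mucosal rule, landmark list, number of bins, cell filters, doublets, clustering resolution and each section left out.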

Additional observations from a re-analysis of the deposited data

Results flagged for a closer look

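For 10 of the 30 members measured along both axes, against 10.5% of 10737 genes, the log2 ratio of the luminal end over the crypt end had one sign in both small intestinal sections and the other sign in both large intestinal ones; the difference was not tested, and the sections of a tissue are technical duplicates. The axes were ranked by different landmark lists, and the epithelial list differed between the ends of both. Slc6a20a had ratios of 2.72 and 1.74 in small and of -2.56 and -3.38 in large intestine, a difference of means of 5.199. For Dpp4 they were 3.49 and 3.16 against -1.85 and -1.47 (4.983), and for Slc2a5 2.27 and 1.42 against -1.50 and -3.62 (4.408). These 3 were past 2-fold in opposite directions in the 2 tissues. Per epithelial UMI Slc2a5 was within 2-fold in small intestine. Slc6a20a and Slc2a5 had few UMIs at the large intestinal surface.

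Anpep (3.57 and 2.84 against -0.40 and -0.25, difference 3.531), Slc5a1 (3.32 and 2.80 against -0.12 and -0.13, 3.186) and Slc7a7 (difference 2.913) were past 2-fold in small and within it in large intestine. Per epithelial UMI these 3 were past 2-fold lower at the large intestinal surface (-1.64, -1.44 and -1.62). In the others the ratios stayed within 2-fold or passed it in 1 section: Slc7a8 differed by 1.493, Mgam by 0.8069, Slc1a1 by 0.6904, and Slc16a1, the one with the lower ratio in small intestine, by -1.363. Per epithelial UMI these last 4 no longer had opposite signs, while Slc36a1, Slc3a2, Slc28a2 and Slc11a2 did. The share of all genes with opposite signs is given for the CPM scale only.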

How the results depend on the processing

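Over 69 pairs of a comparison and an alternative setting (at most 10 settings for any comparison), 1373 values of called members were recomputed: 950 stayed within the spread between sections or, for cells, the counting interval, 411 moved past it without changing direction, and 12 changed direction, all of these in the comparison of cluster 15 with clusters 9 and 16. There the count of 23 called members became 12 with up to 50% mitochondrial UMIs, 11 at clustering resolution 0.5 and 15 with doublets kept. At 50% mitochondrial UMIs the ratios were -4.379 for Slc28a2, -2.614 for Slc23a1, -1.758 for Lct, -0.7277 for Treh, -0.4766 for Ace and -0.6086 for Alpi. At resolution 0.5 they were -0.8876 for Slc23a1, -0.936 for Lct, -0.2987 for Treh, -0.0911 for Anpep, -0.239 for Ace and -0.175 for Alpi. The cells in the clusters differ under these settings, and the cause was not tested further. The count for tip over middle was 2 with 3 bins and ranged from 4 to 7 with 1 small intestinal section left out. In organoids the count was 4 with all deposited cells. The other counts of called members, both directions summed, stayed within 1.5 times under the settings run. Along the large intestinal axis the sum hid a change, from 15 higher and 4 lower to 9 and 13 per epithelial UMI. All genes shifted by -1.31 there too. Shares of all genes are given for the main settings only. The alternatives on cluster names and the comparison within clusters by Fabp6 were chosen after seeing the data. No paired analysis was possible because no result comes from a test and the sections are technical duplicates. With 1 library per condition, depth bounds only the counting error, and members with few UMIs (Slc28a2, Slc23a1) are the least certain.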
